A study of Mus musculus with 2 samples.

Results

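The Pi16-positive fibroblasts of 7-day-old mouse tendon were 470 of the 4956 cells of 2 single-cell RNA libraries. They were chosen by their own counts. A cell was taken when it held at least 2 unique molecular identifiers (UMIs, each standing for 1 captured mRNA molecule) of Pi16 and under 5 UMIs over the immune genes Tyrobp, Fcer1g, Laptm5 and Ptprc. The rule found 240 of 2364 cells in the control library and 230 of 2592 cells in the mutant library. Since Pi16 selected the cells, its level is given only as a description.

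Each library came from fore- and hindlimb tendons pooled from 2 pups at P7, digested with enzymes and run on the 10x Genomics 3′ platform. The mutant pups were Tgfbr2 f/-;ScxCre, with a null and a floxed allele of Tgfbr2, the type II receptor gene for TGFβ. Cre recombinase driven by Scleraxis (ScxCre) deletes the floxed allele in cells that express Scleraxis. ScxCre activity is not uniform in the embryo, and a mutant cell that never used that promoter keeps only the floxed allele. Pups of both groups also carried the tendon reporter ScxGFP and the Cre reporter Ai14 Rosa26-tdTomato (RosaT). The control library is labelled wild type in its title and genotype and Het in its description. Scraping of the tendon surface, which takes off epitenon and paratenon cells, was left out before these libraries were made. Each condition had a single library, so there were no replicates to test against, and the effect of a batch cannot be told apart from that of the genotype.

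Pi16 encodes peptidase inhibitor 16, a secreted or membrane-anchored protein, and lies at chr17:29317680-29330593 on the plus strand of GRCm38. In many mouse tissues it marks fibroblasts of the loose connective tissue around vessels and organs, which are known for the surface proteins DPP4, SCA-1 (encoded by Ly6a) and CD34 and for genes of elastic microfibrils. Fibroblasts of this kind are often described as progenitors of other fibroblast states. Where the cells sat in the tendon was not measured here, so they are called Pi16-positive cells.

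The Pi16-positive cells had a median depth of 4089.5 UMIs with 1698 genes detected in the control library, and of 3227 UMIs with 1438.5 genes in the mutant library. They were set against the other cells of the same library with at least 5 UMIs over Ly6a, Cd34, Dpt, Lum and Col3a1 and a Scx level under 0.3% of the cell's UMIs, called comparison cells. There were 594 comparison cells in the control library, with a median of 3569.5 UMIs, and 1684 in the mutant library, with a median of 2861 UMIs. The comparison cells were not one kind of cell. In the control library 98 of the 594 held at least 10 UMIs over markers of pericytes and smooth muscle, against 84 of the 1684 in the mutant library and against 7 and 9 of the Pi16-positive cells.

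Pi16-positive cells made up 10.2% of the control library (exact binomial 95% interval 8.96 to 11.4) and 8.87% of the mutant library (7.81 to 10.03). These intervals overlap, and they cover counting error only. As a share of Pi16-positive plus comparison cells, they were 28.8% in the control and 12.02% in the mutant library. The second pair of shares has unlike denominators, with 594 comparison cells in the control and 1684 in the mutant library. Leaving aside immune and haemoglobin-rich cells, high Scx was found in 1159 control and 231 mutant cells outside the class. Of these 975 and 53 were also under the limit on fibroblast UMIs, so either limit would have kept them out. In the control library 12 immune cells and 1 haemoglobin-rich cell also reached the Scx limit. When every cell was thinned to 1500 UMIs before the rule, which left out 199 control and 328 mutant cells as too shallow, the shares of all cells were 7.48% (6.41 to 8.67) and 6.05% (5.10 to 7.11).

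Pi16 itself had a median of 6 UMIs and a maximum of 44 in the control Pi16-positive cells, and a median of 4 and a maximum of 51 in those of the mutant library. Scaled to the summed UMIs of the class, as counts per 1e6 UMIs (CPM), it stood at 2121 and 2036 CPM. More Pi16 UMIs were thus counted per cell in the deeper control class (median depth 4089.5 UMIs, against 3227 in the mutant class), while the scaled levels were close. At 10 or more Pi16 UMIs were 85 of 240 control cells and 53 of 230 mutant cells. Among immune cells, which should lack the gene, 5 of 189 control cells and 8 of 185 mutant cells had a Pi16 UMI (2.65% and 4.32%, median depths 2477 and 1703 UMIs), and none had more than 1.

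The given markers were checked against the label. Ly6a was found in 211 of the 240 control and 196 of the 230 mutant Pi16-positive cells, and Cd34, a sialomucin of the cell surface, in 220 and 196. Both genes together were found in 202 control and 173 mutant cells, and 11 cells of each library had neither. At 1500 UMIs per cell, Ly6a was found in 83.5% of control Pi16-positive cells, 33.6% of control comparison cells and 2.03% of control immune cells. The mutant shares in the same order were 77.9%, 39.0% and 5.56%.

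Dpp4, which encodes the serine protease DPP4, was scarcer. It was found in 59 control and 17 mutant Pi16-positive cells (24.6% and 7.39%), and after thinning in 10.97% and 3.69%. Immune cells gave 1.06% and 1.08% as counted. In the control library Dpp4 also appeared in 13.9% of the Scx-high cells, so it did not separate the Pi16-positive cells from tendon cells there. Dact2, which encodes an intracellular modulator of signalling, was found in 44 control and 9 mutant Pi16-positive cells and in 0 of 189 and 0 of 185 immune cells, which allows shares of up to 1.59% and 1.62% of cells with a UMI (3 counts of the total). All 5 markers were found together in 15 control and 2 mutant cells. Most Pi16-positive cells thus held Ly6a and Cd34, and a minority held Dpp4 or Dact2. Cd34 was also found in 61.1% of control and 64.8% of mutant comparison cells, a class chosen partly on it, beside 91.7% and 85.2% of Pi16-positive cells.

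**Figure D1:**
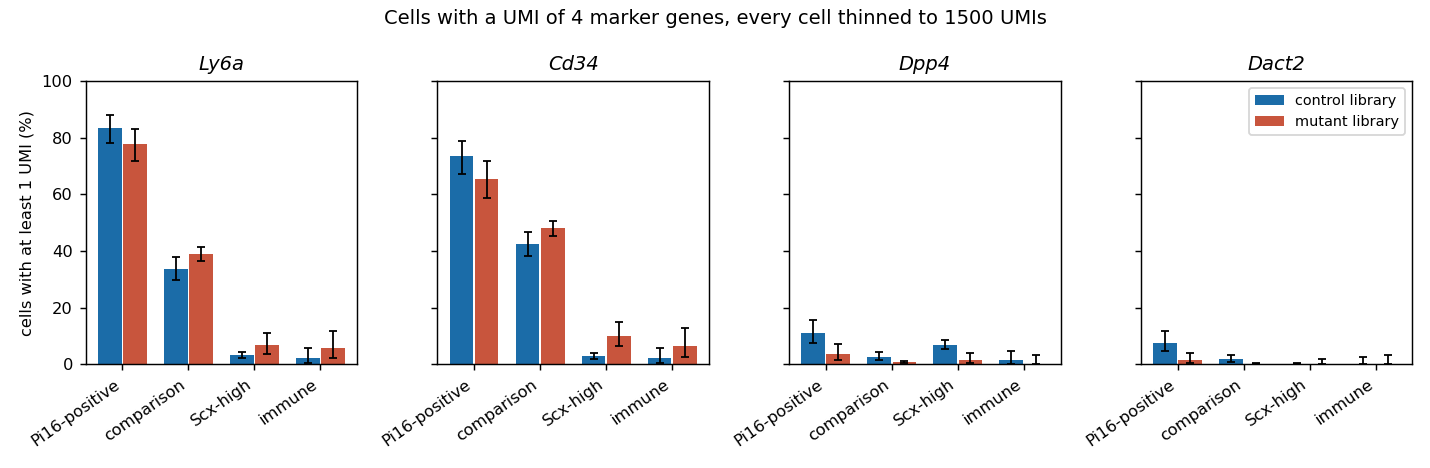
Percent of cells with at least 1 UMI of Ly6a, Cd34, Dpp4 and Dact2 (y axis) in Pi16-positive, comparison, Scx-high and immune cells (x axis) of the control (blue) and mutant (red) library, every cell thinned to 1500 UMIs. Bars start at 0 and error bars are exact binomial 95% intervals. Ly6a reached 83.5% and 77.9% of the Pi16-positive cells, while Dpp4 reached 10.97% and 3.69%.

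Few members carried the marks of another class. At or above the Scx limit of the comparison cells were 6 control and 4 mutant Pi16-positive cells. At least 5 UMIs over the endothelial markers were held by 2 control and 1 mutant cell, and 3 control and 1 mutant cell were called as doublets. Immune cells were kept out by the rule itself, which used 4 of the 12 immune markers, so the low summed level of these markers (28.5 CPM in control and 26.9 CPM in mutant Pi16-positive cells) is no check of the label. In the control library 1 haemoglobin-rich cell held 1817 of the 1903 Hba-a1 UMIs of its class, and in the mutant library 1 cell held 223 of 266. A single mutant cell held 63 of the 76 UMIs of Mbp, a myelin gene of Schwann cells. No cell barcode shared between the libraries belonged to a Pi16-positive cell.

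Levels moved along the Pi16 count within each library. Cells were grouped by 0, 1, 2, 3 to 4, 5 to 9 and 10 or more Pi16 UMIs, the first 2 groups being comparison cells. The median depth of these groups lay between 3561 and 4359 UMIs in the control library and between 2716 and 3479 UMIs in the mutant library. Ly6a stood at 571, 1144, 1184, 1728, 2244 and 2987 CPM in the control library. Across the mutant groups it stood at 707, 1249, 1337, 1641, 2322 and 2825 CPM. Each step was upward in both libraries.

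Cd34 went from 464 to 1556 CPM between the lowest and highest group in the control library and from 531 to 1358 CPM in the mutant library. Fbn1, which encodes fibrillin-1, the main protein of microfibrils, went from 404 to 3043 CPM and from 307 to 1962 CPM. Efemp1, which encodes the fibulin-like matrix protein EFEMP1, went from 19.03 to 388 CPM and from 19.7 to 337 CPM. These genes were highest in the cells richest in Pi16. Gap43, a gene best known from growing axons, went from 104 to 619 CPM in the control library, while in the mutant library it was highest at 5 to 9 Pi16 UMIs, with 480 CPM, and stood at 362 CPM above that.

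Other genes went the other way. Tnmd, which encodes the tendon membrane protein tenomodulin, went from 1521 to 114 CPM in the control and from 1196 to 74.3 CPM in the mutant library. Col15a1, a basement membrane collagen gene that marks another fibroblast state, stood at 118, 132, 132, 234, 34.5 and 41.6 CPM across the control groups. It thus peaked at 3 to 4 Pi16 UMIs and was low only above 4. Col15a1 in the mutant library stood at 135 CPM without Pi16 and at 19.8 CPM in the top group.

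Cells on both sides of the threshold were close in some genes and apart in others. Comparison cells with 1 Pi16 UMI and members with 2 differed little in Ly6a (1144 and 1184 CPM in the control, 1249 and 1337 CPM in the mutant library) and in Cd34 (823 and 808 CPM, then 699 and 788 CPM). Across the threshold in the control library Efemp1 went from 28.2 to 81.4 CPM, Dact2 from 22.5 to 62.6 CPM and Acta2 from 1699 to 251 CPM. The mutant library gave 43.8 and 75.1 CPM for Efemp1 and 227 and 225 CPM for Acta2. There were 89 control and 139 mutant cells just under the threshold and 40 and 63 just above it.

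**Figure D2:**
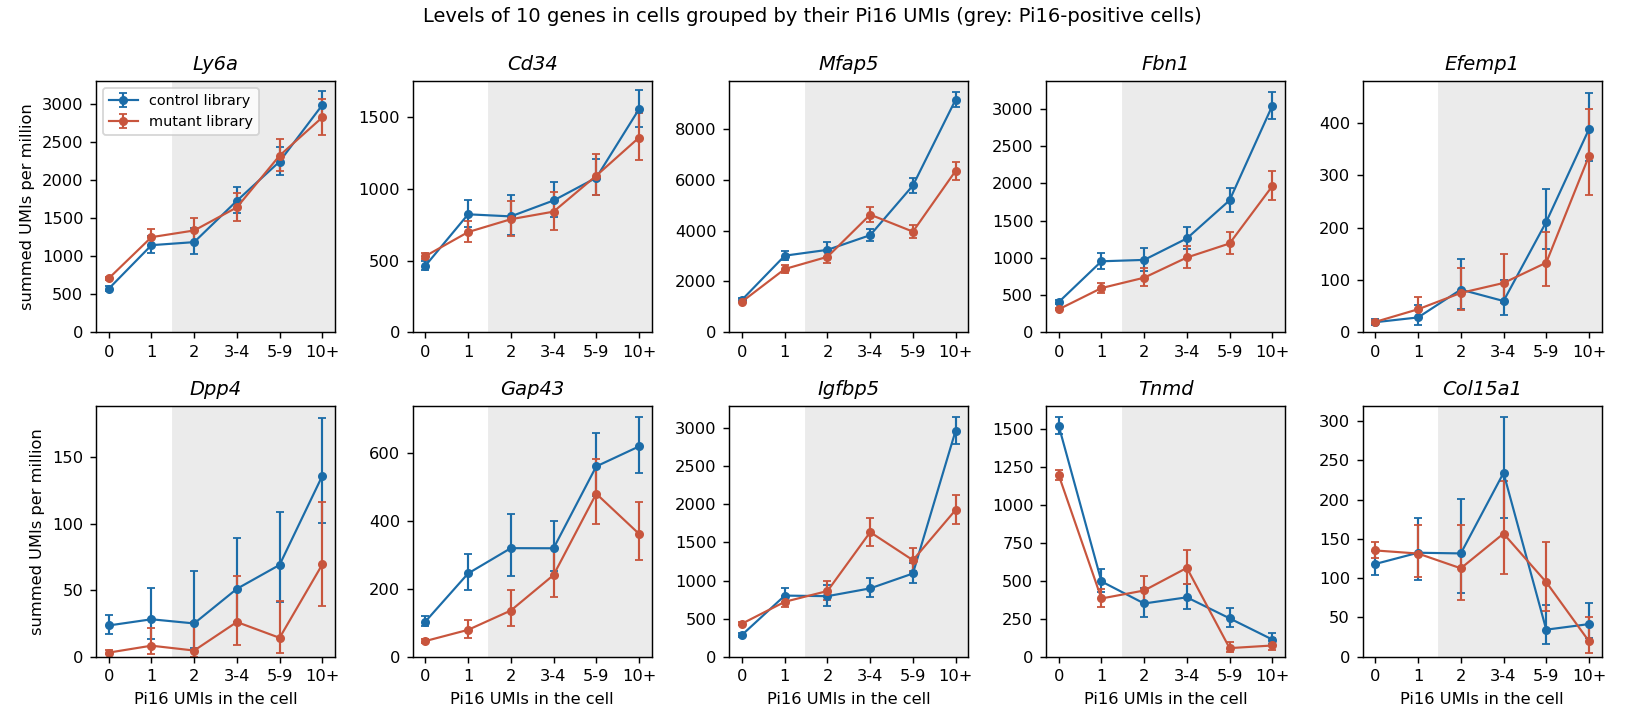
Summed CPM (y axis, from 0 in each panel) of 10 genes in cells grouped by their Pi16 UMIs (x axis) in the control (blue) and mutant (red) library. Error bars are exact binomial 95% intervals for counting error, and the grey area holds the Pi16-positive cells. Ly6a, Cd34, Fbn1 and Efemp1 were highest at 10 or more Pi16 UMIs in both libraries, and Tnmd was lowest there in the control library.

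Ratios of summed CPM were then taken between Pi16-positive and comparison cells over every gene that averaged 0.1 UMI per cell or more in one of the classes, with exact conditional 95% intervals that cover counting error only. Because the cells were chosen on Pi16 and the comparison cells partly on Ly6a, Cd34 and Scx, these ratios describe the cells and test nothing. In the control library 148 of 5297 genes were at least 2-fold higher in Pi16-positive cells (2.79%) and 262 were at least 2-fold lower (4.95%). In the mutant library 128 of 4608 genes were at least 2-fold higher (2.78%) and 90 at least 2-fold lower (1.95%). Over all tested genes the median log2 ratio was -0.05 in the control and 0.03 in the mutant library.

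Of 4408 genes tested in both libraries, 56 were at least 2-fold higher in both (1.27%) and 33 at least 2-fold lower in both (0.749%). Among these 4408 genes 105 were at least 2-fold higher in the control and 112 in the mutant library, of which the 56 were 53.3% and 50%. At least 2-fold lower among them were 131 in the control and 67 in the mutant library, of which the 33 were 25.2% and 49.3%. The 10 genes that followed Pi16 most closely, by the smaller of their ratios in the 2 libraries, were Tek, Efemp1, Tmeff2, Wnt2, Scara5, Ackr1, Pcolce2, Adgrd1, Gap43 and Stmn4. Scx-high cells had no part in this ranking. In the control library Pcolce2 stood at 384 CPM in Scx-high and 216 CPM in Pi16-positive cells, so it did not mark the latter there. The mutant levels were 74.5 and 109 CPM. The rest of the 10 were lower in Scx-high than in Pi16-positive cells of both libraries. Few mutant cells carried Stmn4, with 29 UMIs in 11 Pi16-positive cells and 79.3% of them in 5 cells.

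Tek, which encodes the angiopoietin receptor TIE2 and is best known from endothelium, stood at 28.5 CPM in control Pi16-positive cells and 3.83 CPM in comparison cells (7.46-fold, 3.44 to 17.9). Mutant cells held it at 34.3 and 2.47 CPM (13.9-fold, 6.94 to 29.1). It was found in 27 and 24 Pi16-positive cells. The endothelial markers summed to 95.5 and 78.3 CPM in the Pi16-positive cells, below the 202 and 178 CPM of the comparison cells, with Kdr and Emcn at 0 in the control members and 1 UMI each in the mutant members. Ackr1, a scavenging receptor for chemokines that is also known from venules, was 5.00-fold higher in both libraries (2.83 to 9.11 and 2.94 to 8.43).

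Efemp1 stood at 219 CPM in Pi16-positive and 20.4 CPM in comparison cells of the control library (10.7-fold, 7.81 to 14.95). Mutant levels were 159 and 21.9 CPM (7.27-fold, 5.61 to 9.43). Of the genes averaging 0.5 UMI per cell or more, Efemp1 had the highest ratio after Pi16 in both libraries. Scara5, a scavenger receptor that takes up ferritin, was at 129 and 13.2 CPM in the control library (9.78-fold, 6.57 to 14.98). It was at 84.5 and 16.2 CPM in the mutant library (5.22-fold, 3.74 to 7.26). Wnt2, a ligand of the Wnt pathway, was 5.86-fold higher in the control (3.90 to 8.99) and 15.3-fold higher in the mutant library (8.32 to 29.3), with 84.7 and 46.5 CPM in the Pi16-positive cells.

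The Dpp4-type progenitor list holds 22 genes described for such fibroblasts. Of 20 tested in the control library 13 were at least 2-fold higher in Pi16-positive cells and none at least 2-fold lower. Their median log2 ratio was 1.40. Of 19 tested in the mutant library 15 were higher and none lower, with a median of 1.80. Mfap5, which encodes a microfibril glycoprotein, stood at 6121 and 1537 CPM in the control (3.98-fold, 3.82 to 4.15) and 4445 and 1319 CPM in the mutant library (3.37-fold, 3.24 to 3.51). Sema3c, a secreted guidance factor, was 2.90-fold and 3.62-fold higher. Cd55, which encodes a protein that shields cells from complement, stood at 292 and 158 CPM in the control library and at 135 and 35.03 CPM in the mutant library, 1.85-fold and 3.84-fold higher.

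Has1, which makes hyaluronan, was the member of that list that differed most between the libraries. It stood at 46.3 CPM in Pi16-positive and 50.6 CPM in comparison cells of the control library (ratio 0.914, 0.638 to 1.29). The mutant values were 58.8 and 9.33 CPM (6.30-fold, 4.14 to 9.58). The level in the Pi16-positive cells of the 2 libraries was close, and the comparison cells were the class that differed. Tppp3, known from tendon sheath cells, stood at 1914 and 1696 CPM in the control library (1.13-fold) and at 812 and 251 CPM in the mutant library (3.24-fold), so both classes were lower in the mutant library.

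Some elastic fibre and microfibril genes were higher in the Pi16-positive cells. Of 15 tested in the control library 7 were at least 2-fold higher and none lower, and of 16 in the mutant library 4 were higher and none lower, with median log2 ratios of 0.80 and 0.52. Ratios below 1 were found for 2 of the 15 and 3 of the 16. Besides Fbn1, Mfap5 and Efemp1 these included Emilin2, which was 3.37-fold and 3.90-fold higher. Eln, which encodes elastin itself, was 1.34-fold and 1.35-fold higher, with 2774 and 6282 CPM in the Pi16-positive cells. Among the proteases and their inhibitors 9 of 24 genes were at least 2-fold higher in the control library and 7 of 24 in the mutant library, including the rule's own Pi16, while 3 were at least 2-fold lower in the control library (Serpine2, Htra1 and Timp1, with ratios of 0.191, 0.457 and 0.475) and none in the mutant library. Adamts5, which cleaves aggrecan and versican, was 3.71-fold and 2.14-fold higher, and Timp3, an inhibitor of such proteases that binds to matrix, was 2.18-fold and 2.68-fold higher.

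The insulin-like growth factor genes split. Igfbp5 stood at 1666 and 366 CPM in Pi16-positive and comparison cells of the control library (4.56-fold, 4.20 to 4.95) and at 1411 and 461 CPM in the mutant library (3.06-fold, 2.85 to 3.28). Igfbp6 was 2.31-fold and 2.51-fold higher. Igfbp3 was lower in both, at ratios of 0.426 (0.367 to 0.493) and 0.393 (0.338 to 0.455). Igfbp2 was lower too, at 0.0553 and 0.297, but without cells rich in pericyte or endothelial markers these ratios were 0.338 and 0.114, and in the mutant library 1 cell held 44 of its 68 UMIs in the Pi16-positive class. These genes encode binding proteins of the same growth factors, and their ratios ran in both directions.

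The lists of signalling and regulatory genes were mixed. Of 13 tested Wnt ligands and modulators 4 were at least 2-fold higher in control Pi16-positive cells, namely Wnt2, Dact2, Dact1 (2.89-fold) and the secreted modulator Sfrp4 (3.14-fold), and 2 of 9 in the mutant library. In each library 1 of the tested genes was at least 2-fold lower, Wisp2 in the control (0.0728) and Sfrp2 in the mutant library (0.406), 7 of the 13 control ratios were below 1, and the medians of the log2 ratios were -0.28 and 0.24. Among 21 mesenchymal transcription factors tested in the control library 1 was higher, Osr1 (2.78-fold, 1.54-fold in the mutant library), and among 18 in the mutant library 1, Klf4 (2.11-fold, 1.78-fold in the control library), while 1, Meox1, was at least 2-fold lower in the control library (0.384) and none in the mutant library. Of the BMP list 1 of 9 was at least 2-fold higher and 2 lower in the control library, and 1 of 8 higher and 1 lower in the mutant library. The higher ones were Bmp1, a procollagen protease (2.32-fold, 1.61-fold in the mutant library), and Fstl1 (2.05-fold in the mutant, 1.81-fold in the control library). Id1, a target of BMP signalling, was lower in both, at 0.494 and 0.460, and Id2 in the control library, at 0.383. Among tendon sheath and synovial lining genes 4 of 7 were at least 2-fold lower and none higher in the control library, and 1 of 7 lower and 2 higher, Has1 and Tppp3, in the mutant library, with median log2 ratios of -1.13 and 0.21. Prg4, which encodes the lubricant lubricin, was one of the 4, with ratios of 0.102 and 0.934.

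Genes of other fibroblast states did not share this pattern. In the Col15a1-type list none of 11 tested genes was at least 2-fold higher and 2 were at least 2-fold lower in each library, with median log2 ratios of -0.02 and -0.43. Of the collagen genes none was at least 2-fold higher in either library, while 5 of 20 were at least 2-fold lower in the control and 1 of 18 in the mutant library, with ratios below 1 for 11 and 12 of them. Col11a1, a fibrillar collagen gene of cartilage and tendon that is also on the tenocyte list, was past 2-fold lower in both, at 0.401 and 0.218. Col3a1, one of the genes that chose the comparison cells, was 1.85-fold and 1.55-fold higher. Of the Schwann cell markers none passed 2-fold in either direction in either library. Of the preadipocyte genes none of 4 tested was at least 2-fold higher and 1 at least 2-fold lower in the control library, and none of 6 higher and 2 lower in the mutant library, with median log2 ratios of 0.09 and -0.56. Dlk1, which encodes a Delta-like protein of immature cells, stood at 1427 and 1198 CPM in control Pi16-positive and comparison cells and at 1889 and 2322 CPM in those of the mutant library. Fabp4, a fatty acid carrier, stood at 0.984 CPM (1 UMI) in control Pi16-positive cells and 161 CPM in comparison cells, and at 26.9 and 270 CPM in the mutant library, where 19 of its 22 UMIs came from 1 cell. Without cells rich in pericyte or endothelial markers Fabp4 gave no control ratio.

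Tnmd and contractile genes were at the lower end, while the tenocyte markers as a list were mixed in the control library. Tnmd stood at 251 CPM in Pi16-positive and 1366 CPM in comparison cells of the control library (ratio 0.184, 0.161 to 0.209). Mutant levels were 284 and 1122 CPM (0.253, 0.221 to 0.289), with 93 of its 232 UMIs in 1 cell. Of the tenocyte markers 7 of 14 tested were at least 2-fold lower and 1, Scx, at least 2-fold higher in the control library, and 5 of 12 lower and none higher in the mutant library. Ratios above 1 were found for 5 of the 14 and 1 of the 12. Summed, the list stood at 22185 CPM in control Pi16-positive and 20187 CPM in control comparison cells. The mutant sums were 17170 and 22997 CPM. Col1a1, the most abundant gene of the list, stood at 11680 and 10221 CPM in the control and 8987 and 11425 CPM in the mutant library. The limit on Scx was put on the comparison cells alone, so the direction of Scx follows from the rule and is no result. The medians, -1.05 and -0.52, moved to -1.91 and -0.96 when the limit on Scx was also put on the Pi16-positive cells, and the control median was 0.24 when cells with 1 Pi16 UMI were counted as members.

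Acta2, the smooth muscle actin gene, stood at 128 and 5908 CPM in the control library (ratio 0.0217, 0.0181 to 0.0257) and at 104 and 526 CPM in the mutant library (0.198, 0.157 to 0.245). All 10 pericyte and smooth muscle markers summed to 279 and 9802 CPM in the control and to 420 and 1088 CPM in the mutant library, Acta2 being the most abundant in both comparison classes. When cells rich in these or in endothelial markers were left out, the control ratio of Acta2 became 0.548 and the mutant ratio 1.13, a shift that choosing cells by Acta2 itself builds in. The number of genes at least 2-fold lower in the control library went from 262 to 162. The ratio of Tnmd stayed below 1, at 0.143 and 0.155, when the highest cell of each class was left out.

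**Figure D3:**
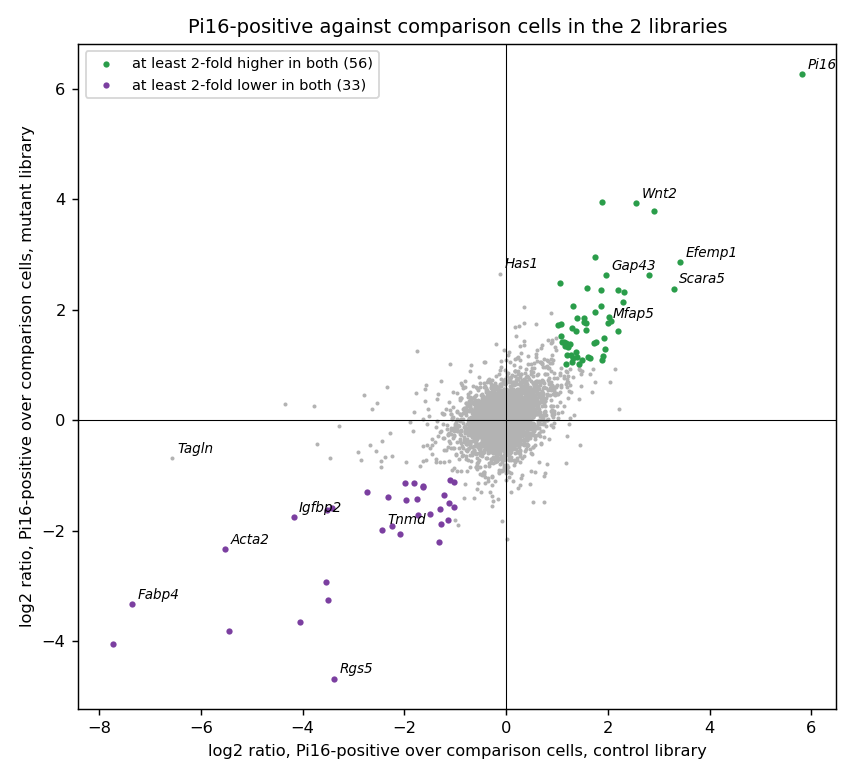
Log2 ratio of summed CPM between Pi16-positive and comparison cells in the control library (x axis) and in the mutant library (y axis) for the 4408 genes tested in both, 1 point per gene. Green points are the 56 genes at least 2-fold higher in both and purple points the 33 at least 2-fold lower in both; Pi16, which chose the cells, lies at the top right.

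The last question was how the Pi16-positive cells of the mutant library differed from those of the control library. Of 5177 genes tested 222 were at least 2-fold higher in the mutant library (4.29%) and 245 at least 2-fold lower (4.73%). Over all of them the median log2 ratio was 0.01. Tgfbr2, the targeted gene, had 105 UMIs in 80 control cells and 93 UMIs in 67 mutant cells (103 and 114 CPM, ratio 1.10, 0.824 to 1.47). Against the comparison cells it was 2.19-fold higher in the control (1.66 to 2.89) and 1.71-fold higher in the mutant library (1.34 to 2.15). A 3′ tag outside the deleted part can also count transcripts of the deleted and null alleles, so these counts do not check the genotype. The comparison and immune cells come from the same 2 libraries, so their values are set side by side and not as separate evidence. Xist was at 0 UMIs in both, and the Y-linked gene Ddx3y was found in both (36 and 37 UMIs).

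Several matrix and signalling genes were low in control and higher in mutant Pi16-positive cells. Cxcl14, a chemokine, stood at 48.2 CPM in the control and 705 CPM in the mutant library (14.6-fold, 10.9 to 19.99, or 8.07-fold with every cell thinned to 1500 UMIs). In the comparison cells it stood at 179 and 722 CPM (4.04-fold) and in the immune cells at 39.1 and 36.03 CPM. Within the control library it was thus lower in Pi16-positive than in comparison cells (ratio 0.269, 0.196 to 0.363), while in the mutant library the classes were close (0.976, 0.893 to 1.07).

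Cilp, which encodes cartilage intermediate layer protein, and Col8a1, a collagen gene of vessel walls and membranes, had the same form. Cilp stood at 14.8 and 272 CPM in Pi16-positive cells of the control and mutant library (18.4-fold, 10.9 to 33.4) and at 92.3 and 235 CPM in comparison cells. Its ratio between the libraries was 3.70 with every cell thinned to 1500 UMIs. Col8a1 stood at 28.5 and 413 CPM (14.5-fold, 9.88 to 21.9, or 8.51-fold when cells with 1 Pi16 UMI were counted) and at 145 and 272 CPM in comparison cells. Thbs4, a matrix gene of tendon and muscle attachment, stood at 111 and 610 CPM (5.48-fold, 4.46 to 6.78) and at 396 and 701 CPM. In the control library each of these 3 genes was lower in Pi16-positive than in comparison cells, with ratios of 0.160, 0.196 and 0.281, and in the mutant library the ratios were 1.16, 1.51 and 0.870. With the limit at 5 or more Pi16 UMIs the mutant ratios were 0.455, 0.880 and 0.555, so their closeness to the comparison cells depended on the Pi16 limit. The control ratios at that limit were 0.239, 0.185 and 0.252. Without cells rich in pericyte or endothelial markers the control ratios of Cilp and Thbs4 were 0.137 and 0.233, while Col8a1 was under the filter of 0.1 UMI in both control classes and gave none, so its control ratio rests on those cells. Whether the ratios differed between the libraries beyond a spread between pups was not tested.

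Within the mutant Pi16-positive cells these genes were not confined to those with few Pi16 UMIs. Cxcl14 stood at 901, 606, 883 and 406 CPM in mutant cells with 2, 3 to 4, 5 to 9 and 10 or more Pi16 UMIs, against 50.1, 42.6, 42.2 and 55.5 CPM in control cells. The mutant level was above the control level in every group. Among cells with at least 5 Pi16 UMIs the mutant to control ratio was 13.02 for Cxcl14, 10.4 for Col8a1, 5.78 for Cilp and 4.36 for Thbs4. Against mutant comparison cells Cilp, Col8a1 and Thbs4 were lower at this limit than over all members, as given above.

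Emb, which encodes the cell adhesion protein embigin, had 4 UMIs in control and 143 in mutant Pi16-positive cells (3.94 and 175 CPM, 44.5-fold, 16.99 to 165). It was also higher in the mutant library in comparison cells (7.92-fold) and immune cells (3.99-fold). Plac8 had 17 and 170 UMIs (12.4-fold, 7.54 to 21.8), and in the control library 88.2% of them lay in 5 cells. The comparison cells had 4 and 525 Plac8 UMIs. Ddah1, which breaks down an inhibitor of nitric oxide synthase, was 8.06-fold higher (5.17 to 13.1) and Sfrp1, a secreted Wnt modulator, 4.90-fold higher (3.32 to 7.41), beside 8.56-fold and 3.07-fold in comparison cells. Tagln, a contractile gene, was 7.72-fold higher (5.19 to 11.9), but 61.1% of its mutant UMIs lay in 5 cells and its ratio was 0.796 when cells with 1 Pi16 UMI were counted. In comparison cells the Tagln ratio was 0.130.

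Chemokine, cytokine and complement genes leaned upward in the mutant library. Of 15 tested in Pi16-positive cells 8 were at least 2-fold higher and 3 at least 2-fold lower, and the median of the log2 ratios was 1.11. Besides Cxcl14, Cxcl12, the ligand of CXCR4, stood at 248 and 787 CPM (3.17-fold, 2.74 to 3.69), and C4b, a complement component, at 15.7 and 131 CPM (8.32-fold, 4.89 to 15.1). Il33, an alarmin cytokine, stood at 45.3 and 97.9 CPM (2.16-fold, 1.49 to 3.18). The comparison cells gave 3.46-fold, 14.2-fold and 3.11-fold for Cxcl12, C4b and Il33, so these differences were also found outside the Pi16-positive cells. Lower were Ccl2, where 1 cell held 68 of 86 control UMIs and 1 cell 27 of 29 mutant UMIs, Cd55 and Ackr3, a decoy receptor of Cxcl12.

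The Dpp4-type progenitor genes leaned downward. Of 20 tested 6 were at least 2-fold lower in the mutant library and none at least 2-fold higher. The median of their log2 ratios was -0.80. Igfbp6 stood at 2682 and 794 CPM (ratio 0.296, 0.271 to 0.323), Cd55 at 292 and 135 CPM (0.461, 0.367 to 0.575), Anxa3 at 283 and 126 CPM (0.445, 0.352 to 0.559) and Clec3b at 2708 and 1309 CPM (0.483, 0.4499 to 0.519). In the comparison cells the same genes had ratios of 0.272, 0.221, 0.279 and 0.574, and Igfbp6 had 0.244 in immune cells. Mfap5 and Fbn1 were lower by less, at 0.726 (0.697 to 0.757) and 0.616 (0.570 to 0.665). Ly6a and Ly6c1, which are related in sequence, were close between the libraries (0.914 and 0.937), as was Cd34 (0.873), while Dpp4 stood at 0.345 (0.207 to 0.552) and Dact2 at 0.187 (0.0925 to 0.344).

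Myoc, which encodes the secreted protein myocilin, had the smallest ratio of the genes averaging 0.5 UMI per cell or more once haemoglobin, ribosomal protein, mitochondrial and Gm-numbered genes were left out. Hba-a2, a haemoglobin gene, had a ratio of 0.128, with 1388 of its 1446 control UMIs in 1 cell. Myoc stood at 243 and 31.8 CPM (0.131, 0.0838 to 0.196), and in comparison cells at 107 and 54.4 CPM. In the control library Myoc was 2.27-fold higher in Pi16-positive than in comparison cells. That ratio was 1.36 at 5 or more Pi16 UMIs and 1.80 without cells rich in pericyte or endothelial markers. In the mutant library Myoc was lower (0.585, 0.375 to 0.875). Krtdap, a gene best known from keratinocytes, stood at 306 and 69.8 CPM (0.228, 0.169 to 0.303), with Krt5 and Krt14 at 0 UMIs in the Pi16-positive cells of both libraries. Krt10, another keratin gene, had 70 UMIs in 53 control and 47 UMIs in 41 mutant Pi16-positive cells. Against comparison cells the 2 tested epithelial markers were above 1 in each library, with median log2 ratios of 0.96 and 1.16. Scx, whose counts may include the ScxGFP transgene, stood at 920 and 307 CPM (0.334, 0.289 to 0.384), with 214 and 197 of the 935 control UMIs and 85 and 76 of the 251 mutant UMIs in the 2 highest cells of each class. Col11a2, a fibrillar collagen gene of cartilage and tendon, had 80 UMIs in the control class, 65% of them in 5 cells, and 0 in the mutant class. Of 13 tested tenocyte markers 4 were at least 2-fold higher in the mutant Pi16-positive cells and 3 at least 2-fold lower. The median of their log2 ratios was -0.34, and 0.29 when the limit on Scx was also put on the Pi16-positive cells.

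Other low genes belonged to the libraries as a whole. Ppia, Gapdh, Myl6, Gng5 and Gpx4, genes used by nearly every cell, had ratios of 0.162, 0.223, 0.228, 0.277 and 0.309 in Pi16-positive cells. In comparison cells they had ratios of 0.0923, 0.187, 0.0941, 0.169 and 0.236, and in immune cells 0.0735, 0.144, 0.257, 0.249 and 0.339. The share of UMIs on 159 annotated pseudogenes was 0.0261% and 0.0491% in control and mutant Pi16-positive cells and 0.0286% and 0.0557% in immune cells. The part of this difference between the libraries in the ratios above was not tested.

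**Figure D4:**
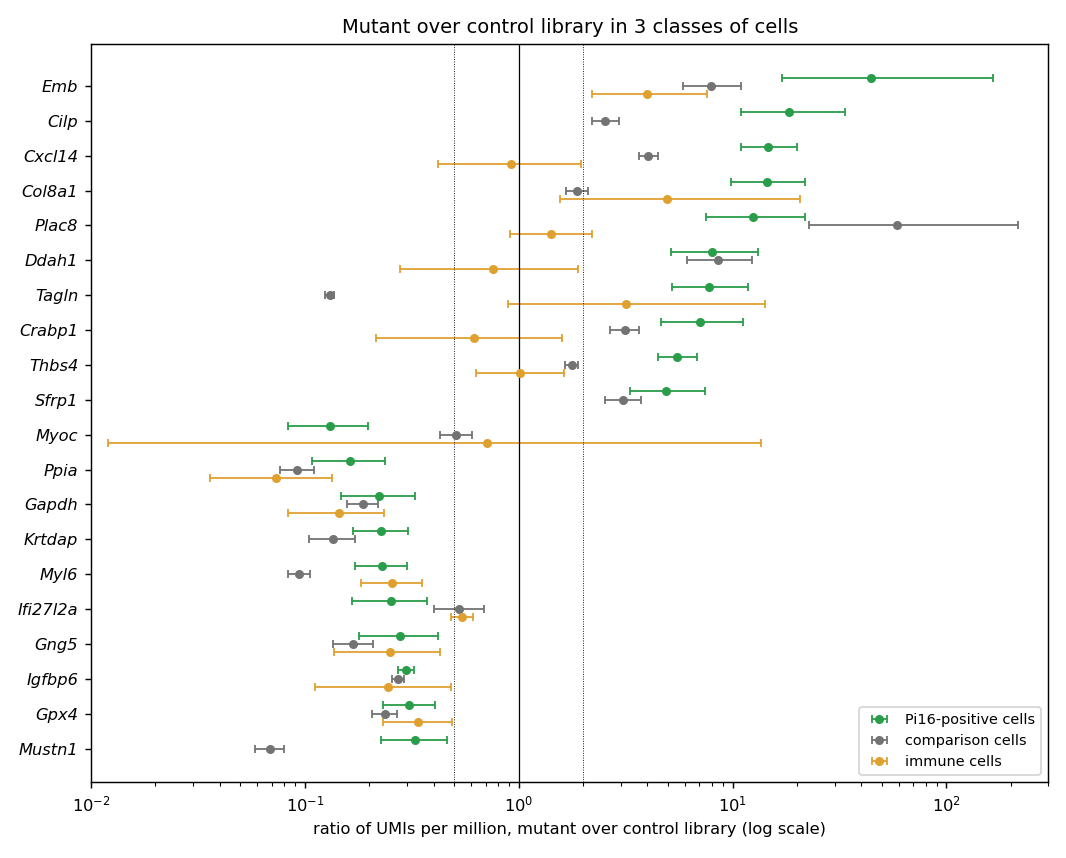
Ratio of summed CPM, mutant over control library (x axis, log scale; dotted lines at 2-fold), for the 10 highest and 10 lowest genes of the Pi16-positive cells, haemoglobin, ribosomal protein, mitochondrial and Gm-numbered genes left out (y axis), drawn for Pi16-positive (green), comparison (grey) and immune cells (orange) with exact conditional 95% intervals. Cxcl14, Cilp and Col8a1 stood further from 1 in Pi16-positive than in comparison cells, and Ppia and Gapdh stood below 0.5 in all 3 classes. For Col8a1 this contrast rests on control comparison cells rich in pericyte or endothelial markers, without which its level there was under the filter.

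Among 7 tested tendon sheath and synovial lining genes 2 were at least 2-fold higher in the mutant Pi16-positive cells, Cilp and Prg4 (10.8 and 86.9 CPM, 8.03-fold), and 1, Tppp3, was at least 2-fold lower. The median of the log2 ratios of that list was 0.89. Of the TGF-beta ligands, receptors and targets 4 of 15 were at least 2-fold higher in the mutant Pi16-positive cells and none lower, and the median of the log2 ratios was 0.64. The 4 were the ligand genes Tgfb2 (2.19-fold, 1.59 to 3.03) and Tgfb3 (2.27-fold, 1.53 to 3.42), Ctgf (2.04-fold, 1.21 to 3.50) and Tgif1 (2.66-fold, 1.37 to 5.44). Tgfbi, often used as a readout of TGFβ signalling, stood at 354 and 196 CPM (0.553, 0.456 to 0.668). The listed targets thus ran in both directions. Summed over the list, the control and mutant levels were 2155 and 3119 CPM in Pi16-positive cells. In comparison cells they were 2189 and 3798 CPM, so the rise of the sum was also found outside the Pi16-positive cells. Postn was the most abundant gene of the list in each class. Of 16 elastic fibre genes 3 were at least 2-fold higher, namely Eln (2.26-fold, 2.16 to 2.37), Fbn2 and Ltbp2, and Eln had a ratio of 2.25 in comparison cells.

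The direction of the cell cycle genes changed with thinning. Of 13 tested 6 were at least 2-fold lower in mutant Pi16-positive cells and none higher, and the median of the log2 ratios was -0.77, which became 0.78 with every cell thinned to 1500 UMIs. Ube2c, which drives exit from mitosis, stood at 87.6 and 17.1 CPM (0.196, 0.103 to 0.346), whereas Pcna, a replication clamp, stood at 67.9 and 86.9 CPM (1.28, 0.906 to 1.81). The Ube2c UMIs came from few cells, with 74.2% of the control and 85.7% of the mutant UMIs in 5 cells. The share of Pi16-positive cells with at least 2 UMIs over the list was 27.5% (22.0 to 33.6) in the control and 22.6% (17.4 to 28.6) in the mutant library. At 1500 UMIs per cell it was 10.97% (7.29 to 15.7) and 8.76% (5.35 to 13.3), and in the comparison cells 16.2% and 13.04%. These intervals cover counting error within a library, and with 1 library per condition a difference in cycling cells was not tested.

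**Figure D5:**
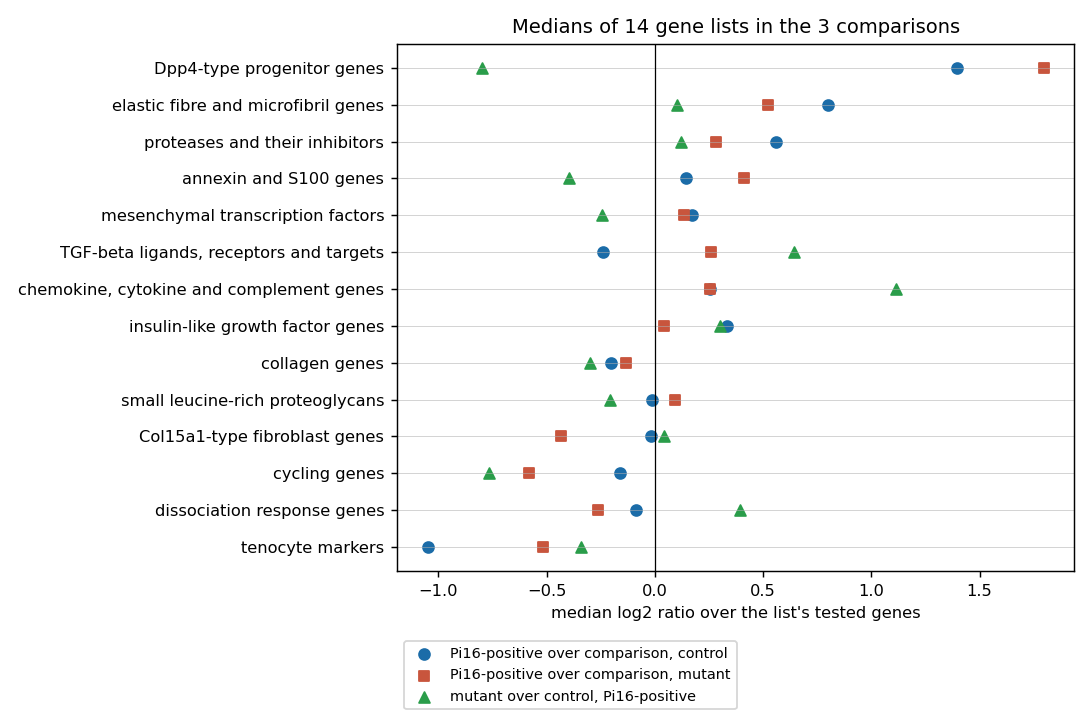
Median log2 ratio (x axis) over the tested genes of 14 lists (y axis) for Pi16-positive against comparison cells in the control (blue circles) and mutant (red squares) library and for mutant over control library within the Pi16-positive cells (green triangles). The Dpp4-type list lay at 1.40 and 1.80 against comparison cells and at -0.80 between libraries.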

How the data were processed

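The deposited values are UMI counts per gene and cell barcode, which the authors made from 10x Genomics 3′ libraries with the mm10 genome. The methods name Cell Ranger 2.0 and the submitters' processing notes Cell Ranger 1.2.0. All barcodes and 27998 genes were used, with 9451606 UMIs in the control and 8250248 UMIs in the mutant library. Counts were summed over the cells of a class and scaled to CPM. Ratios have exact conditional intervals and shares exact binomial (Clopper-Pearson) intervals at 95%, which cover counting error only, and the ratio step was tested on simulated data. Named genes were the 10 highest and 10 lowest of each comparison and the 15 at each end across libraries, among genes averaging 0.5 UMI or more and leaving out mitochondrial, haemoglobin, ribosomal protein and Gm-numbered genes, besides the list genes, the 10 genes following Pi16 most closely and Tgfbr2. Parm1 and Hspb8 were chosen after their values were seen. Scrublet in scanpy 1.11.5 (expected rate 2%) called doublets, which were kept. Alternatives changed the Pi16 and Scx limits, the filters on cells and genes, the depth and the scaling. Python 3.11.15, NumPy 2.4.6, SciPy 1.17.1 and pandas 2.3.3 were used, with coordinates from GENCODE M21. The members and gene lists were chosen with earlier results of these data known.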

Additional observations from a re-analysis of the deposited data

Results flagged for a closer look

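Parm1 and Hspb8 were at least 2-fold lower in Pi16-positive than in comparison cells of the control library and at least 2-fold higher in the mutant library. Parm1, which encodes a mucin-like membrane protein, had ratios of 0.295 (0.178 to 0.466) and 2.39 (1.66 to 3.37). Its level in Pi16-positive cells was 20.7 CPM in the control and 56.3 CPM in the mutant library, and in comparison cells 70.1 and 23.6 CPM. Hspb8, a small heat shock protein gene, had ratios of 0.463 (0.302 to 0.689) and 2.03 (1.37 to 2.97), from 29.5 and 63.8 CPM in the control and 45.3 and 22.3 CPM in the mutant library. Both were picked out because the libraries ran in opposite directions, and the difference was not tested.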

How the results depend on the processing

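No paired analysis was possible because each condition has 1 library. Of the named genes past 2-fold, 50 of 52 in the control comparison, 34 of 36 in the mutant comparison and 26 of 28 between libraries kept their direction under every alternative that gave a value. Shares of all cells in the control and mutant library were 15.1% and 14.5% at 1 or more Pi16 UMIs, 8.46% and 6.44% at 3 or more, 6.35% and 4.40% at 5 or more, and 7.48% and 6.05% with cells thinned to 1500 UMIs. Shares of fibroblast-like cells at those settings were 41.4% and 19.6%, 24.0% and 8.73%, 18.1% and 5.97%, and 23.9% and 8.25%, and the control share was 32.1% without cells rich in pericyte or endothelial markers. That last setting and the limit of 5 UMIs were chosen after seeing the data.

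Counts of genes past 2-fold followed the filter on level. Averaging 0.5 UMI or more, 54 were higher and 65 lower in the control comparison, 34 and 17 in the mutant comparison, 42 and 40 between libraries, and 18 and 10 in both comparisons. With no filter the same counts were 1097 and 1279, 1049 and 1042, 1115 and 1195, and 230 and 275. At 1 or more Pi16 UMIs 85 genes were higher in the mutant comparison, and 35 higher and 20 lower in both. At 5 or more, 218 were higher and 179 lower in the mutant comparison, and 87 higher and 73 lower in both. Thinning left 129 genes lower in the control comparison and 150 lower between libraries, and leaving out pericyte-rich and endothelial-rich cells left 162 lower in the control comparison.

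The median log2 ratio of the Dpp4-type list in the control comparison was 1.23 at 1 Pi16 UMI, 1.66 thinned and 1.25 without pericyte-rich and endothelial-rich cells, and in the mutant comparison 1.46 at 1 UMI, 1.49 averaging 0.5 UMI or more and 2.10 at 5 UMIs. In the control comparison the median of the tenocyte list was 0.24 at 1 UMI, a change of direction, -1.91 with the Scx limit on both classes, -1.65 without doublets and -1.74 with cells weighted equally. In the mutant comparison it was -0.96 with the Scx limit, -1.28 thinned, -1.26 with no filter and -1.52 at 5 UMIs. Between libraries the median of the tenocyte list was -0.34 with the settings used above and -1.06 at 1 UMI. With the Scx limit it was 0.29, the opposite direction, and without pericyte-rich and endothelial-rich cells -0.42. Other values past 2-fold that changed direction were Fmod in the control comparison (1.30) and Hbegf (0.941) and Tagln (0.796) between libraries at 1 UMI, Fabp4 in the mutant comparison when thinned (2.05), and, without pericyte-rich and endothelial-rich cells, Myl6 in the control comparison (1.01), Acta2 (1.13) and the pericyte list (0.17) in the mutant comparison, of which the last 2 are built from the genes that chose the cells. Under thinning the median of the cycling list, short of 2-fold before, was 0.78 between libraries and 0.21 in the mutant comparison, and 1500015O10Rik in the control comparison was 1.202 at 1 UMI. The pericyte list ran from -6.05 to -0.84 in the control comparison, -3.18 to 0.17 in the mutant comparison and -1.53 to 1.33 between libraries. Between libraries Cilp ran from 3.70 to 21.04, Cxcl14 from 8.07 to 17.3 and Col8a1 from 8.51 to 16.3, all above 1. Ddah1 ran from 4.18 to 9.50, Plac8 from 9.68 to 41.4 and Thbs4 from 3.05 to 6.05, also all above 1. The cause was not tested. A gene with few UMIs, such as Dpp4 or Dact2, limits what this depth can show in single cells.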
